A study of Mus musculus with 2 samples.

Results

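Blood clotting genes are described here in the liver of a mouse that lacks the membrane protease matriptase-2 and in the liver of a control mouse. The 35 genes were taken from a fixed list of clotting factors, anticoagulants, fibrinolysis genes and vitamin K enzymes. Of these, 34 were named alone by at least 1 probe set, out of 18193 genes so named on the array, and together they had 46 probe sets. Cpb2 had no such probe set and was not analysed here.

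Gene expression was measured on Affymetrix GeneChip Mouse 430 2.0 arrays, 1 array per group. The control array came from the liver of a control male, whose Tmprss6 genotype the labels do not spell out. The other came from a Tmprss6-/- male, also called Tmprss6-deficient, made by gene targeting. Both mice were 3 months old, of mixed 129Sv/C57BL6 background, and had fasted overnight. The labels do not say whether they were littermates or whether a sample held RNA of more than 1 animal. A group of 1 array has no replicate error and allows no test, so each difference below is one between these 2 arrays, and their number limits the precision.

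Clotting is a chain of plasma proteases, most of them made by hepatocytes as inactive precursors, that ends when thrombin cuts fibrinogen into fibrin. It can be started by tissue factor with factor VII, or on surfaces by the contact proteases factor XII, prekallikrein and factor XI. Serpins and the protein C system hold the chain back, and plasmin, made from plasminogen, later dissolves the clot. Several of these proteins work only after vitamin K-dependent carboxylation, which the liver carries out.

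Values are MAS5 signals, a linear measure of probe set brightness. Each gene is read on its brightest probe set, ratios are Tmprss6-deficient over control, and a floor of 17.8, the median signal of the arrays, stands in for detection. Genes at or above the floor on at least 1 array are called measured, and counts of higher or lower genes take differences of 1.5-fold or more. A smaller ratio is stated with its size and is not counted. Probe sets of the same gene disagree by some amount, and that is the sole error available here. The SD of this disagreement, on the log2 scale, was 0.18 above a signal of 1024, 0.32 between 256 and 1024, 0.37 between 64 and 256, and 0.46 below 64. Variation between animals is not part of it. Signals of different probe sets are not set against each other, since probes differ in brightness. Tmprss6 itself read 1866 in the control and 88.2 in the Tmprss6-deficient liver, 21.2-fold lower, the direction the labels give, though no source used here says whether its probes lie in the deleted part.

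Most coagulation genes were close between the 2 livers, 32 of the 34 within 1.5-fold, as were most genes on the array, 10036 of 12243. All 34 genes were measured, 32 of them on both arrays. A single gene was lower by 1.5-fold or more, F11 (factor XI), and a single gene was higher, Plaur (the urokinase receptor), at a signal barely over the floor. Of all 12243 named genes measured, 9.09% were lower and 8.94% were higher by that much. Most of the 34 are bright, and bright genes vary less. Of the 20 with a mean signal above 1024, 0 passed 1.5-fold in either direction, where 3.30% and 5.44% of the 1029 named genes of that brightness were higher and lower. In a group of 20 genes, a count of 0 is near those shares. The median log2 ratio of the 34 genes was 0.057, against -0.0012 over all measured genes and -0.047 over the bright ones. Ratios lay above 0 for 20 genes and below 0 for 14. Plat and Plau count above 0 only because they passed the floor on the Tmprss6-deficient array alone. Over the 32 genes above the floor on both arrays, the median was 0.043.

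**Figure D1:**
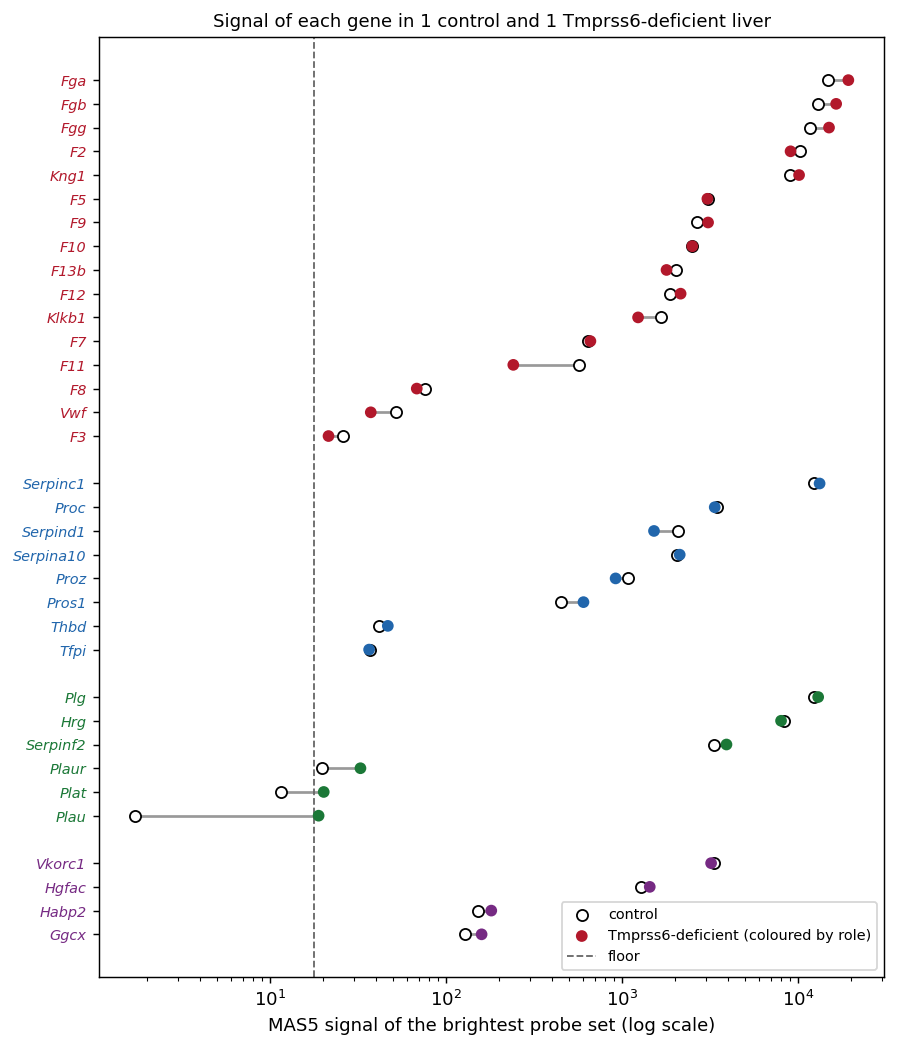
MAS5 signal of the brightest probe set of each of the 34 genes (x axis, log scale) in the control liver (open circles) and the Tmprss6-deficient liver (filled circles, coloured red for clotting factors, blue for anticoagulants, green for fibrinolysis genes and purple for other members), 1 array each, sorted by control signal within each role. The dashed line is the floor of 17.8. F11 shows the widest gap among genes far above the floor, and the gaps of Plat and Plau start below it.

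The 3 fibrinogen chains together form fibrinogen, the substrate of thrombin, and are classic acute-phase proteins of the hepatocyte. All 3 had ratios above 0 of near-equal size, 1.28-fold to 1.30-fold, and 0 of the 3 passed 1.5-fold. Their genes lie side by side on chromosome 3, in the order Fgg, Fga, Fgb among protein-coding genes. The bases before each start site, from RefSeq on build GRCm38.p6, are shown to compare what these 3 genes hold, with those before F11, which had the ratio farthest from 0 among the 32 genes above the floor on both arrays. Each run covers the 250 bases before the start, 5′ to 3′ on the gene's own strand. Fga lies at chr3:83025903-83026152 on the plus strand, Fgb at chr3:83049864-83050113 on the minus strand, Fgg at chr3:83007474-83007723 on the plus strand and F11 at chr8:45262032-45262281 on the minus strand. Capitals mark matches, on either strand, to GTTAAT (an arm of the HNF1 site), CTGGGAA (the core of an interleukin-6 response element), TTCNNNGAA (a STAT site) or TTNNGNAA (a C/EBP site), all of them factors known in liver.
Fga: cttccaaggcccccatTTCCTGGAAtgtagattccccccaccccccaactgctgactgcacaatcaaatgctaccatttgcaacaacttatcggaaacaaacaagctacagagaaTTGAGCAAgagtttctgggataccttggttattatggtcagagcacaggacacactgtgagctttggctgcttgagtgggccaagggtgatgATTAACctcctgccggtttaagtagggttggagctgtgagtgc
Fgb: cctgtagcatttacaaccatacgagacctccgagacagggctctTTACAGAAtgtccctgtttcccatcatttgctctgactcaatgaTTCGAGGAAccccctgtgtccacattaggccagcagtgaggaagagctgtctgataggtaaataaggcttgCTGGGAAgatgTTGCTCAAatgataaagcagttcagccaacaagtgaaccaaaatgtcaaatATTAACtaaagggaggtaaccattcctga
Fgg: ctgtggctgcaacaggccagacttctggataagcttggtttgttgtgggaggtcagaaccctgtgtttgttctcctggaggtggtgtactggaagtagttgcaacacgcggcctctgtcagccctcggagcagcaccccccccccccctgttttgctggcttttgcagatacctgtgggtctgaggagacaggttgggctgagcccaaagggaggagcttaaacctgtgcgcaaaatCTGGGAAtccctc
F11: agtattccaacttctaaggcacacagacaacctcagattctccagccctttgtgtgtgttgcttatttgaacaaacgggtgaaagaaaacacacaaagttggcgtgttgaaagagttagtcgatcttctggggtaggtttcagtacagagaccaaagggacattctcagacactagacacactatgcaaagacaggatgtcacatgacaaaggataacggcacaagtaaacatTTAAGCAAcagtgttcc

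Fga and Fgb each held the HNF1 arm, starting 43 and 29 bases before the start site, and each held a STAT match, at 234 and 162 bases. CTGGGAA was found in Fgb at 91 bases and in Fgg at 13 bases. C/EBP matches lay in Fga at 135 bases and in Fgb at 206 and 80 bases. No match to any 1 of the 4 motifs was common to all 3 fibrinogen genes in this window, and F11 held only a C/EBP match, at 17 bases. Among all 32851 RefSeq start sites in the table, the same window held GTTAAT in 6.43%, CTGGGAA in 9.10%, TTCNNNGAA in 7.02% and TTNNGNAA in 36.8%. Of the 27 coagulation genes with an entry there, 6 held the first, 4 the second, 5 the third and 13 the fourth. A gene was counted if any of its start sites held the match, while the percentages count single start sites. The gene counts can therefore run higher for that reason alone and are not comparable with the percentages. The motifs can overlap, and a match describes these letters only, not a bound site.

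Fga, the alpha chain of fibrinogen, read 14783 in the control and 19242 in the Tmprss6-deficient liver, a ratio of 1.30-fold. Fgb, the beta chain, read 12866 and 16405, or 1.28-fold. Fgg, the gamma chain, read 11714 and 14942, also 1.28-fold. On the log2 scale these are 0.38, 0.35 and 0.35, against a probe set SD of 0.18 at that signal. Each chain has 1 probe set, so none has a second reading of its own. A ratio as high as the lowest of the 3 was seen in 7.87% of the 1029 bright genes. Outside the trio, the next protein-coding gene beyond Fgb, Plrg1, read 290 and 255, and the next beyond Fgg, Lrat, read 79.4 and 91.4. Whether signals near the top of the scale were saturated was not assessed, since scanner images were not used here. A list of acute-phase genes, a group the fibrinogens belong to, also held the interleukin-6 signalling genes Stat3, Il6st, Il6ra and Socs3. Among its 22 measured genes, 9 passed 1.5-fold upward and 2 downward, with a median log2 ratio of 0.42. Stat3 and Il6st were among the 9, at log2 ratios of 0.85 and 0.70. Over all measured genes, 8.94% passed it upward and 9.09% downward. Saa2, Saa1, Lcn2 and Orm2 were the 4 farthest from 0, at 4.14-fold, 3.21-fold, 3.14-fold and 2.91-fold higher. The 2 lower genes were Apcs, at 2.50-fold, and Socs3, at 2.07-fold on its brightest set, with only 1 of its 3 sets in that direction. The other 11 lay within 1.5-fold, among them the bright genes Hp, Hpx and Orm1 at log2 ratios of -0.041, 0.056 and 0.040.

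The contact system, which starts clotting on negatively charged surfaces, held the ratio farthest from 0 among the 32 genes above the floor on both arrays. Plau and Plat, which have bounds only, cannot be ranked. F11 encodes factor XI, a protease made by hepatocytes that activates factor IX. It read 566 in the control and 240.1 in the Tmprss6-deficient liver, 2.36-fold lower, a log2 ratio of -1.24 against a probe set SD of 0.32. Of the 2408 named genes with a mean signal from 256 to 1024, 23 had a ratio at or below that of F11, itself included. F11 has a single probe set. Klkb1 encodes prekallikrein, the closest relative of factor XI, and lies next to F11 on chromosome 8. It read 1650.3 and 1229, 1.34-fold lower, or -0.43 against an SD of 0.18.

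The gene beyond Klkb1, Cyp4v3, is a fatty acid hydroxylase and no clotting gene. It was lower too, on both of its probe sets, reading 2442 and 1415 on the brighter and 1287 and 982 on the other, which is 1.73-fold and 1.31-fold. On the far side of F11, Mtnr1a read 26.5 and 37.8 and Fat1 read 291 and 233, and beyond Cyp4v3, Fam149a read 69.9 and 72.0 and Tlr3 read 19.0 and 34.1. F11, Klkb1 and Cyp4v3 are adjacent and each read lower in the Tmprss6-deficient liver, of which F11 and Cyp4v3 passed 1.5-fold and Klkb1 did not. These neighbours were examined after the value of F11 was known, and the cause of the readings at this locus, in mice of mixed 129Sv/C57BL6 background, was not tested.

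F12 and Kng1, the other contact genes, went the other way by small amounts. F12, which encodes factor XII, read 1855 and 2144, 1.16-fold higher. Kng1 encodes kininogen, the cofactor that carries prekallikrein and factor XI and the source of bradykinin. It read 8936 and 10098 on its brightest set and 3788 and 3855 on the other, 1.13-fold and 1.02-fold higher. Its close paralog Kng2, a neighbour on the chromosome, could share these probes, so the value is uncertain. Over the 4 contact genes the median log2 ratio was -0.12, with 1 lower and 3 within 1.5-fold.

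**Figure D2:**
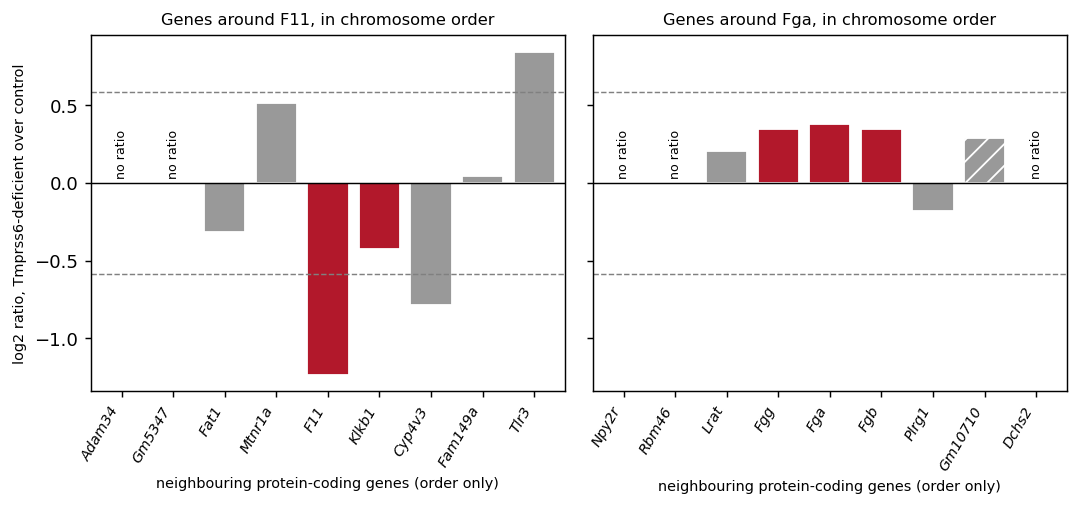
Log2 ratio of Tmprss6-deficient over control (y axis) for the protein-coding genes around F11 (left) and Fga (right), in chromosome order without distances, 1 array per group. Red bars are coagulation genes, grey bars are other genes, the hatched bar is a lower bound, and dashed lines mark 1.5-fold. F11, Klkb1 and Cyp4v3 read -1.24, -0.43 and -0.79, and Fgg, Fga and Fgb read 0.35, 0.38 and 0.35.

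Thrombin and the factors that generate it were near equal. F2, which encodes prothrombin, the precursor of thrombin, read 10170.2 in the control and 9035 in the Tmprss6-deficient liver, 1.13-fold lower. F10, which encodes factor X, the protease that cuts prothrombin, read 2489.5 and 2498 on its brightest set. Its 2 dimmer sets were lower, reading 272 and 172, or 1.58-fold, and 223 and 168, or 1.33-fold, so the sets of F10 did not give 1 answer. F5, the gene of factor V, the cofactor of factor X, read 3082 and 3043 on its brighter set and 2281 and 2638 on the other, close to equal and 1.16-fold higher.

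F9, which encodes the factor IX that factor XI activates, read 2663 and 3070.0, 1.15-fold higher, the opposite direction to F11. F7, which encodes factor VII, the partner of tissue factor, read 639 and 658.5. F13b, the carrier subunit of the fibrin-crosslinking factor XIII, read 2023 and 1783, 1.13-fold lower. On the log2 scale these were 0.21, 0.043 and -0.18, against SDs of 0.18, 0.32 and 0.18.

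F3, F8 and Vwf are made mainly outside hepatocytes and were dim on both arrays. F3 encodes tissue factor, the trigger of clotting after injury, and read 25.9 and 21.4. F8 encodes factor VIII, the cofactor of factor IX, which comes largely from endothelium, and read 75.5 and 67.9. Vwf encodes von Willebrand factor, the endothelial carrier of factor VIII, and read 51.9 and 37.2, 1.39-fold lower. Each of these ratios was negative, at -0.27, -0.15 and -0.48, against SDs of 0.46, 0.37 and 0.46, so F3 and F8 lay within the probe set spread and Vwf just past it. In whole liver, fewer cells of a type and less RNA per cell cannot be told apart.

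**Figure D3:**
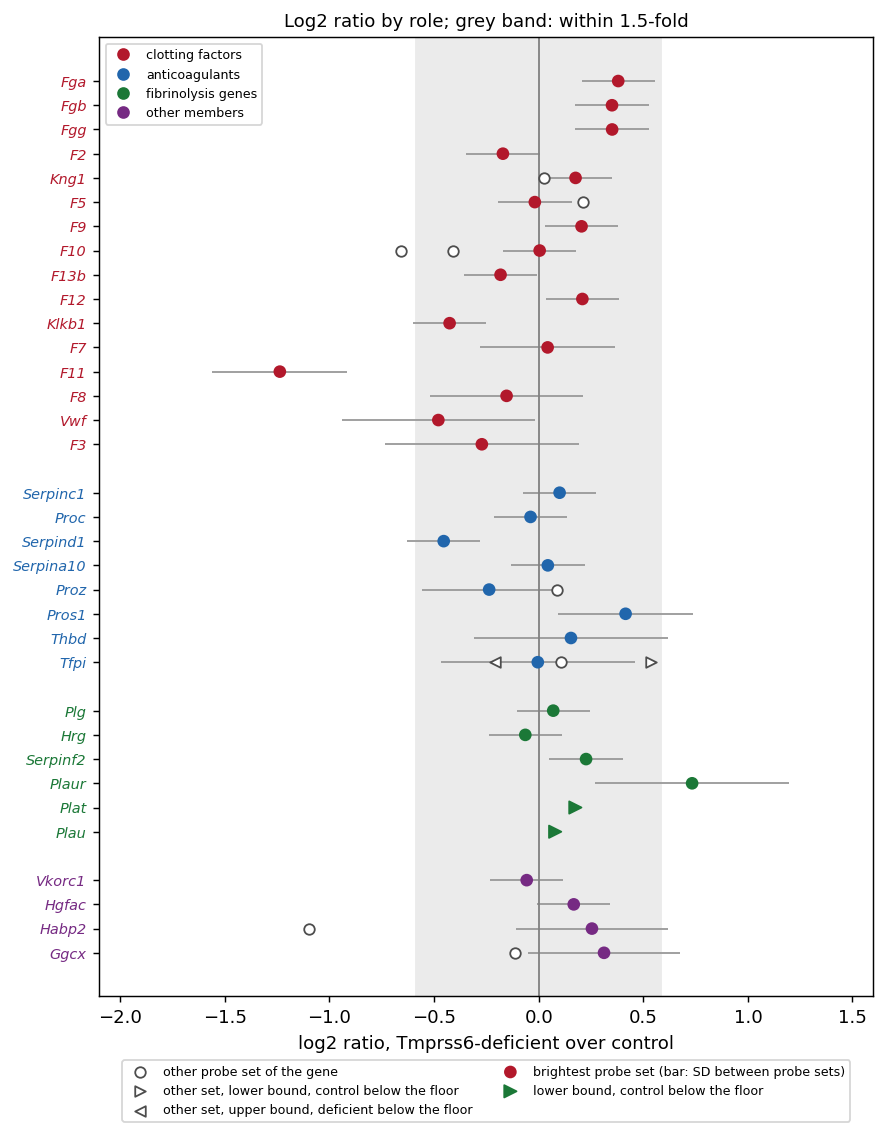
Log2 ratio of Tmprss6-deficient over control for every measured probe set of the 34 genes (x axis), 1 array per group, by role. Filled symbols are the brightest set of a gene with the SD between probe sets at that signal as a bar, open symbols are its other sets, triangles are bounds, and the grey band spans 1.5-fold in each direction. F11 lies at -1.24 and Plaur at 0.73, outside the band, and the second set of Habp2 lies at -1.10.

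The anticoagulants did not lean one way. Ratios lay above 0 for 4 of the 8 and below 0 for the other 4, with a median log2 ratio of 0.020, and 0 were higher or lower by 1.5-fold. Serpinc1 encodes antithrombin, the main inhibitor of thrombin and factor X, and read 12324 in the control and 13209 in the Tmprss6-deficient liver, 1.07-fold higher. Serpind1 encodes heparin cofactor II, an inhibitor of thrombin alone, and read 2072.5 and 1513, 1.37-fold lower, or -0.45 against a probe set SD of 0.18. It was the lowest of the 8. Serpina10, the protein Z-dependent inhibitor of factor X, read 2055 and 2119, and Proz, which encodes protein Z, read 1079 and 916 on its brighter set and 224.0 and 238 on the other.

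The protein C system limits clotting by destroying factors V and VIII. Proc, which encodes protein C, read 3441 and 3349.8, 1.03-fold lower. Pros1, the gene of its cofactor protein S, read 451 and 601, 1.33-fold higher, the highest of the 8 anticoagulants, at 0.42 against an SD of 0.32. Thbd encodes thrombomodulin, the endothelial receptor that lets thrombin activate protein C, and read 41.7 and 46.5. Tfpi encodes the inhibitor of tissue factor and factor VII and read 36.6 and 36.4 on its brightest set and 33.0 and 35.5 on the next. Its remaining 2 sets each passed the floor on a single array and in opposite directions, so Tfpi has no clear direction.

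Fibrinolysis genes fell into bright hepatocyte products that were near equal and dim activators. Plg encodes plasminogen, the precursor of plasmin, and read 12354 in the control and 12966 in the Tmprss6-deficient liver, 1.05-fold higher. Serpinf2 encodes the plasmin inhibitor alpha-2-antiplasmin and read 3338 and 3906, 1.17-fold higher, or 0.23 against an SD of 0.18. Hrg, a plasma glycoprotein that binds plasminogen and heparin, read 8339.6 and 7979, 1.05-fold lower.

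The activators of plasminogen were at the limit of detection. Plau, which encodes urokinase, read 1.7 and 18.8, and Plat, which encodes tissue-type activator, read 11.5 and 20.1, so both crossed the floor on the Tmprss6-deficient array alone. Taken against the floor they were at least 1.06-fold and at least 1.13-fold higher, and their other probe sets were below it on both arrays. Plaur, the receptor that holds urokinase on the cell surface, read 19.6 and 32.5, 1.66-fold higher, or 0.73 against an SD of 0.46. The sign of the Plat and Plau bounds follows from their passing the floor on that array alone. These signals sit where the readings are least reliable. All 3 passed 1.5-fold once the floor was lowered to the 30th percentile of the signals, and with a 70th percentile floor none of them was measured.

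Vitamin K-dependent proteins carry a domain whose glutamates must be carboxylated before they can bind calcium and membranes. Their 7 genes here, F2, F7, F9, F10, Proc, Pros1 and Proz, had a median log2 ratio of 0.0048 and a range from -0.24 to 0.42, with 4 above 0, 3 below 0 and 0 past 1.5-fold. Of them F7, F10 and Proz are neighbours on chromosome 8, with ratios of 0.043, 0.0048 and -0.24. Ggcx encodes the carboxylase and read 128 and 159 on its brighter set and 79.4 and 73.5 on the other, which differ in direction. Vkorc1, the enzyme that recycles vitamin K and the target of warfarin, read 3324 and 3195, 1.04-fold lower.

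Habp2 and Hgfac encode relatives of the plasma proteases that activate, respectively, factor VII and the growth factor HGF. Hgfac read 1274 and 1431.5, 1.12-fold higher. Habp2 read 151 and 180.0 on its brighter set, 1.19-fold higher, but 76.2 and 35.6 on the other, 2.14-fold lower. The 2 sets of Habp2 therefore disagree on both direction and size. Of the 7 genes with 2 or more sets above the floor on both arrays, Kng1 alone had all its sets on 1 side of 0, and F5, F10, Ggcx, Habp2, Proz and Tfpi did not. The sets of F5 and Tfpi above the floor on both arrays stayed within 0.21 of 0 on the log2 scale, while those of F10 and Habp2 reached -0.66 and -1.10.

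Compared by role, the median log2 ratio was -0.0067 for the 16 clotting factors and 0.020 for the 8 anticoagulants, a difference of -0.027 for which no test was possible. The 6 fibrinolysis genes measured give no usable median: its value of 0.13 is the mean of the bounds of Plat and Plau, which passed the floor only through the array where they are high, and it moved to 0.48 with a 30th percentile floor. Their role is therefore compared by its genes, of which Plg, Hrg and Serpinf2 lay within 1.5-fold and Plaur did not. The clotting factors had the widest range, from -1.24 for F11 to 0.38 for Fga, with 8 above 0 and 8 below 0. That width rests on F11, since the next lowest was Vwf at -0.48. The 8 anticoagulants ran from -0.45 to 0.42, and a role with more genes can range wider. Restricted to genes with a mean signal above 1024, a choice made after seeing the data, the 11 clotting factors had a median of 0.18, the 4 anticoagulants 0.0026 and the 3 fibrinolysis genes 0.070. The 4 serpin genes had a median of 0.072 and the 13 protease genes 0.070, with Serpind1 and F11 as their lowest values, and Plat and Plau entered at their bounds.

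**Figure D4:**
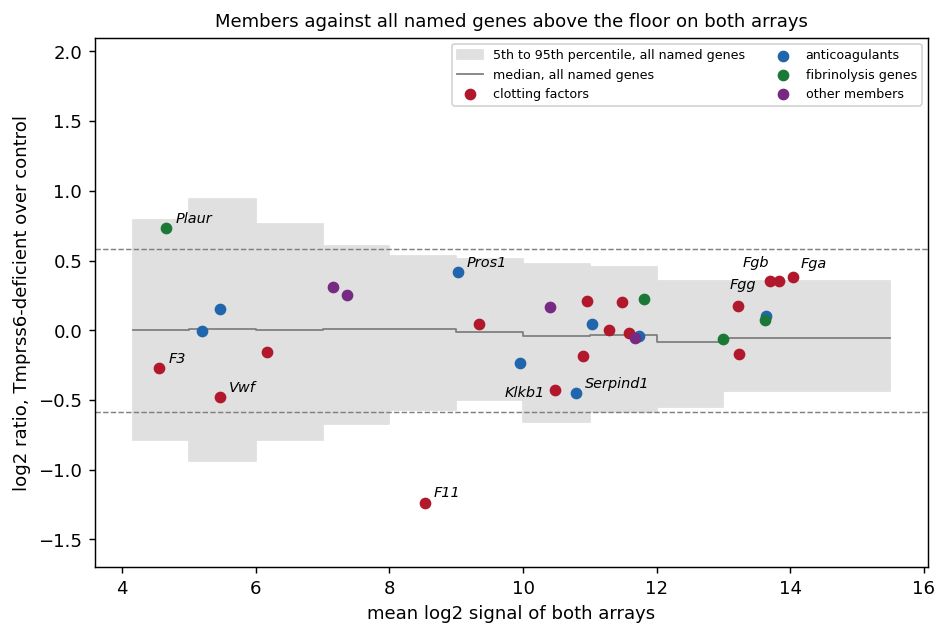
Log2 ratio of Tmprss6-deficient over control (y axis) against the mean log2 signal of both arrays (x axis) for the 32 coagulation genes above the floor on both arrays, coloured by role, 1 array per group. The grey area spans the 5th to 95th percentile of all named genes in each signal range, the grey line is their median, and dashed lines mark 1.5-fold. F11 at -1.24 lies far below the grey area, Fga at 0.38 lies just above it, and Plaur at 0.73 lies inside it.

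Other genes, most of them linked to clotting or fibrinolysis, are given for context. The list also holds Plrg1, Mbl2, Masp1 and Masp2. Of 36 listed genes, 28 were measured, and 3 were higher, 2 lower and 23 within 1.5-fold, with a median log2 ratio of -0.026. Beside the 8.94% higher and 9.09% lower among all measured genes, these counts are near the background and say nothing particular about the list. Fgl1, a liver-secreted protein with a fibrinogen-like domain, read 4790.2 in the control and 9866 in the Tmprss6-deficient liver, 2.06-fold higher. Vkorc1l1, a paralog of Vkorc1, read 173 and 316 on its brighter set, 1.83-fold higher, with the other set in the same direction. Fgl2, a fibrinogen-like protein with prothrombinase activity, read 52.4 and 16.9, at least 2.94-fold lower. Anxa2, a cell-surface receptor for plasminogen, read 145 and 92.5, 1.57-fold lower, and its partner S100a10 read 1534 and 2354, 1.53-fold higher. Serpina5, F2rl3 and Serpinb2 were below the floor on both arrays.

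Markers of the cells that supply these genes are given beside them. Their counts stand beside the 8.94% higher and 9.09% lower among all measured genes, and the lists are short. Sums are of the same probe sets on both arrays and lean on the brightest of them, so they do not measure the number of cells. Hepatocyte markers, of which 12 of 14 were named and all 12 were above the floor on both arrays, summed to 225602 in the control and 207956 in the Tmprss6-deficient liver, with 1 higher and 0 lower by 1.5-fold. Hnf4a, a hepatocyte transcription factor, was 1.54-fold higher, and Tat, Fabp1 and Ass1 read -0.55, -0.38 and -0.32 as log2 ratios. Endothelial markers summed to 2437 and 2520 over 17 genes, with 3 higher and 3 lower. The widest were Lyve1 at 4.72-fold higher, Clec4g at 1.98-fold lower, Egfl7 at 1.92-fold higher with 1 of 3 sets opposed, and Emcn at least 1.66-fold lower. The 8 coagulation genes known for endothelial or other sources (F3, F8, Vwf, Tfpi, Thbd, Plat, Plau and Plaur) give no usable median. Its value of 0.037 is the mean of the Tfpi ratio and the Plau bound. Plat and Plau passed the floor only through the array where they are high. The other 26 had a median of 0.057.

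Macrophage markers summed to 4179 and 3030 over 11 genes, with 1 higher and 4 lower, among them C1qb, Clec4f and Vsig4 at 1.88-fold, 1.75-fold and 1.72-fold lower and Marco at 1.76-fold higher. The remaining lower gene, Timd4, at least 1.59-fold lower, passed the floor on the control array alone. The median log2 ratio of these markers was -0.53, with 2 above 0 and 9 below 0. Platelet markers summed to 394 and 336 over 8 measured genes, 1 of them higher and 0 lower, with a median log2 ratio of -0.11. The brightest of them, Clec1b, read 201 and 135, a log2 ratio of -0.57, so the sum leans on this 1 gene. Ratios lay above 0 for 3 of the 8 and below 0 for 5, but only 4 of the 8 were above the floor on both arrays. The signs of Treml1, Gp1bb, Ppbp and Gp6 follow from which array passed the floor. Treml1 is the 1 gene counted as higher, and the median is the mean of the Itgb3 ratio and the Ppbp bound. Treml1 was at least 1.77-fold higher, Itga2b had a log2 ratio of -0.40, and Gp1bb was at least 1.19-fold lower. Gp5 and Gp9 were below the floor. Stellate and fibroblast markers summed to 3525 and 3614 over 11 genes, with 0 higher and 2 lower. Their median log2 ratio was 0.070, with 7 above 0 and 4 below 0. Acta2 was 5.75-fold lower, and log2 ratios were -0.59 for Lum, 0.38 for Dcn and -0.37 for Col1a2. Bile duct markers were near the floor in the control and below it in the Tmprss6-deficient liver, with Krt19, Cldn7, Krt7 and Epcam at least 2.76-fold, 1.63-fold, 1.14-fold and 1.08-fold lower and Sox9 below it on both. Neutrophil markers summed to 199 and 174 over 6 measured genes, with Csf3r and Ngp 1.83-fold and 1.59-fold higher, Elane at least 1.67-fold lower, S100a8 at -0.41 as a log2 ratio, and Camp and Mpo below the floor. The part of any of these cells in the dim values of F3, F8, Vwf, Thbd, Plat, Plau and Plaur was not tested.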

How the data were processed

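Liver RNA was labelled with biotin and hybridised to 1 array per group, per the labels. The deposited values are intensity signals made by the authors with MAS5, per the submitters' processing notes, with version and settings not given in the sources used here. Of 45101 probe sets, 64 are controls, 34958 name 1 gene in the platform annotation, 932 name several and 9211 are not listed; only the first kind was used.

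With Python 3.11.15, numpy 2.4.6 and pandas 2.3.3, the arrays were scaled to the same mean after leaving out 2% of probe sets at each end (factors 0.9987 and 1.0013). Signals under the floor of 17.8 (the median of all but control sets) were set to it before log2 was taken. Where 1 array alone passed the floor, the ratio is a bound, written "at least". The probe set spread is the SD of the difference between a gene's 2 brightest sets, divided by the square root of 2, over 4367 genes. The calculation of ratios was tested on an array simulated from the control, with known changes in genes of a mean signal above 256. That checks the arithmetic only, and not the ratios of dim genes or the variation between animals.

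The genes, lists and thresholds were chosen with earlier results of these data known. Named are all 34 genes, the 4 members of each other list with the ratios farthest from 0, and marker genes below the floor. S100a10, Apcs, Socs3, Hp, Hpx, Orm1, Stat3, Il6st, Il6ra, Ppbp, Gp6, Itgb3 and Timd4 were added after values were seen. So were Mbl2, Masp1, Masp2, the neighbours of F11 and of the fibrinogen genes, and the motifs. Alternatives covered scaling, floor, pseudocount, choice of probe set and fold (loess with statsmodels 0.14.6).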

Additional observations from a re-analysis of the deposited data

How the results depend on the processing

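The counts of higher and lower genes among the 34 and the medians of all 34, the clotting factors, anticoagulants, fibrinolysis genes and fibrinogen chains were recomputed under up to 12 other settings and 1 chosen after seeing the data, which keeps only genes with a mean signal above 1024. The medians have no value at 2-fold, and those of the fibrinogen chains and fibrinolysis genes none with the second brightest set. Medians of the other groups and marker lists were not recomputed, apart from the list of 36 other genes given for context. Of 84 such values, 73 stayed within the probe set SD of the median or, for counts, within 1.5 times. The number of genes higher went from 1 to 3 with a 30th percentile floor, to 0 with a 70th percentile floor, where Plaur, Plat and Plau are not measured, at 2-fold, with plain probe sets, with the second brightest set and above 1024. With the floor as a pseudocount it was Plau, not Plaur. The number lower went from 1 to 2 with plain sets (F11 and Habp2) and with the second brightest set (F10 and Habp2, where F11 has none), and to 0 above 1024, where F11 drops out. The fibrinolysis median moved from 0.13 to 0.48 with the 30th percentile floor, and the clotting factor median from -0.0067 to 0.18 above 1024. Small medians changed sign with scaling, the clotting factors to 0.044 with loess and all 34 genes from 0.057 to -0.012 with median scaling. Median scaling also moved the median over all measured genes, from -0.0012 to -0.0645. F11 lay between -1.31 and -1.18 under each setting that reads it, and Fga, Fgb and Fgg between 0.31 and 0.49, 0.28 and 0.46, and 0.28 and 0.45. No paired analysis was possible because each group holds 1 array, which also leaves no replicate to leave out. Signals near the floor limit what can be said of F3, Vwf, Tfpi, Thbd, Plat, Plau and Plaur.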
